A study of Arabidopsis thaliana with 6 samples.

Results

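BCAT4 and NAI2 are a pair of Arabidopsis thaliana genes from different branches of the chemical defence of crucifers, and in petioles of a dense canopy they moved in opposite directions. BCAT4 (AT3G19710) was 2.71-fold higher in canopy petioles than in petioles of single plants, and NAI2 (AT3G15950) was 1.50-fold lower. Both were chosen by name, through probe sets that the platform annotation pairs with exactly 1 gene, with their difference between canopy and single plants already known. Their own differences are therefore a description and carry no test. They are 2 of the 13286 genes that could be followed by name, and each has 1 such probe set. The same rule took other listed BCAT genes as a family comparison, and the annotation used here holds 1 of them, ATBCAT-5. Aminotransferase genes listed without a BCAT symbol were not taken, so the family comparison may be incomplete.

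The study set petioles, the leaf stalks, of plants grown in a canopy of 2066 plants per m2 against petioles of plants kept separate, with 3 arrays per group. Seeds of both groups had 3 days of cold, the days were short (9 h light, 15 h dark, at 20°C), and seedlings went into pots of their own after 10 days. Canopy plants were then set close together, and both were harvested about 23 days after sowing, when the leaf area of the canopy was 0.9 times its ground area (a leaf area index of 0.9). Each array took RNA from 2 young petioles of each of 4 plants, pooled. The labels name no ecotype, mutant allele or transgene in either group. The question is how an early canopy and growth alone differ in petiole transcripts. The values are RMA expression values on a log2 scale with an unknown zero point, so differences can be read but not absolute amounts.

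Glucosinolates are sulfur-rich defence compounds of crucifers, and the aliphatic ones are built from methionine. BCAT4, an aminotransferase of the cytosol, removes the amino group from methionine and so opens the chain elongation that precedes the glucosinolate core. ER bodies are spindle-shaped compartments of the endoplasmic reticulum in crucifers that store β-glucosidases such as PYK10. NAI2 is a protein of the ER body needed for its formation, and the transcription factor NAI1 controls NAI2 and PYK10 in seedlings. Some of the stored β-glucosidases can cleave indolic glucosinolates, which links both systems in defence against herbivores and microbes.

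Canopy replicate 1 stood apart on the second principal component, which held 20.6% of the variance. Its score was 22.6, that of canopy replicates 2 and 3 was -8.9 and -15.9, and single-plant arrays scored -1.3 to 4.1. Without that array, the differences of 26 of 41 genes named below (all but UGT74B1 and the genes matched by profile) moved by at most 1.5 times. The other 15 moved further. Apart from BCAT4 and NAI2, which carry no test, none of the 41 passed the limma test, whether it moved or not. The green-tissue genes RCA, PSBW and ATPC1 were the 3 measured members of 10 such markers and had levels between 8.88 and 11.25 on all arrays. The markers of other cell types that could be followed were few: 1 of 8 for epidermis (CR4, 1.06 to 1.23), 1 of 6 for guard and myrosin cells (FMA, 1.16 to 1.69), 2 of 8 for root and 0 of 10 for vascular tissue. Of these 7 markers, 0 passed the limma test, and the same count held before adjustment, at p under 0.05. In pooled tissue, fewer cells of a type and less RNA per cell cannot be told apart.

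BCAT4 stood at 4.70, 4.47 and 4.66 in single-plant replicates 1, 2 and 3 and at 5.92, 6.17 and 6.04 in canopy replicates 1, 2 and 3 (log2 level). The groups did not overlap, as in 17.0% of all probe sets: the lowest canopy array lay 1.22 log2 units above the highest single-plant array, and the widest gap between any canopy and any single-plant array was 1.70. The canopy mean was 6.04 ± 0.13 and the single-plant mean 4.61 ± 0.12 (log2 level, SD, n = 3), a difference of 1.44 ± 0.11 (log2, SE from limma). The increase ranked 36th from the top among 22746 probe sets. Without canopy replicate 1 the difference was 1.50, and leaving out each array in turn gave 1.37 to 1.50.

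NAI2 stood at 2.57, 2.51 and 2.73 in single-plant replicates 1, 2 and 3 and at 2.03, 2.08 and 1.94 in canopy replicates 1, 2 and 3 (log2 level). Its groups did not overlap either, and the closest canopy and single-plant arrays were 0.43 log2 units apart. The canopy mean was 2.02 ± 0.07 and the single-plant mean 2.60 ± 0.11 (log2 level, SD, n = 3), a difference of -0.59 ± 0.10 (log2, SE from limma). The decrease ranked 184th from the bottom among the 22746 probe sets. Without canopy replicate 1 the difference was -0.59, and leaving out each array in turn gave -0.63 to -0.52.

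Within groups, BCAT4 varied about as much as most probe sets and NAI2 less. The pooled SD within groups was 0.13 for BCAT4 and 0.09 for NAI2, against a median of 0.13 over all probe sets (log2). Among the 542 probe sets with a mean level within 0.25 of that of BCAT4, 67.3% had a larger pooled SD. Among the 1348 probe sets within 0.25 of NAI2, 90.6% did. Within single plants both were lowest in replicate 2, and BCAT4 was highest in replicate 1 and NAI2 in replicate 3. Within the canopy both were highest in replicate 2.

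**Figure D1:**
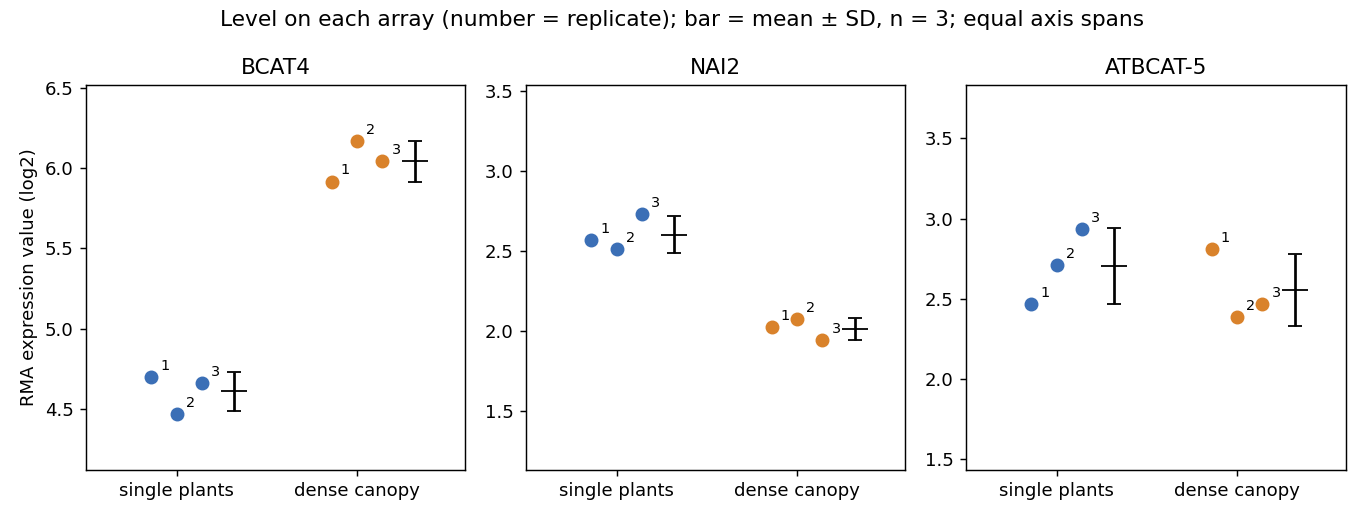
Level of BCAT4, NAI2 and ATBCAT-5 on each array (RMA expression value, log2), with single plants in blue, dense canopy in orange, replicate numbers beside the points and bars for the mean ± SD (n = 3). The 3 panels span the same number of log2 units; the groups are apart for BCAT4 (canopy higher) and NAI2 (canopy lower) and overlap for ATBCAT-5.

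ATBCAT-5, a family member of the plastid that acts in branched-chain amino acid metabolism, was not called. It stood at 2.47, 2.71 and 2.94 in single plants and at 2.81, 2.38 and 2.47 in the canopy (log2 level, replicates 1, 2 and 3), and the groups overlapped. The difference was -0.15 ± 0.15 (log2, SE, n = 3 per group; limma adjusted p = 0.78). Its 95% interval ran from -0.49 to 0.19. The difference was -0.28 without canopy replicate 1 and -0.28 to -0.03 when each array was left out in turn.

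Across all 22746 probe sets, 0.677% passed the limma test at a Benjamini-Hochberg adjusted p under 0.05, with 0.426% higher and 0.251% lower in the canopy, and 17.0% had groups that did not overlap. These shares are the background for the counts below. The 9 gene lists used here hold 160 genes, of which 40 probe sets could be followed by name. Of the 40, 0 passed the limma test. An unadjusted p under 0.05 was found for 12 of the 40, a larger share than the 12.2% of all probe sets. Groups did not overlap for 12 of the 40, also a larger share than the 17.0% of all. The excess was not tested, as the lists were chosen with earlier results of these data known. The background was also not matched for level. Of the probe sets with a mean level within 0.25 of that of BCAT4, 1.85% passed the limma test. Within 0.25 of NAI2, 1.63% did, so both shares were above the 0.677% of all. The median difference was -0.005 over the 40 and -0.003 over all probe sets (log2).

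**Figure D2:**
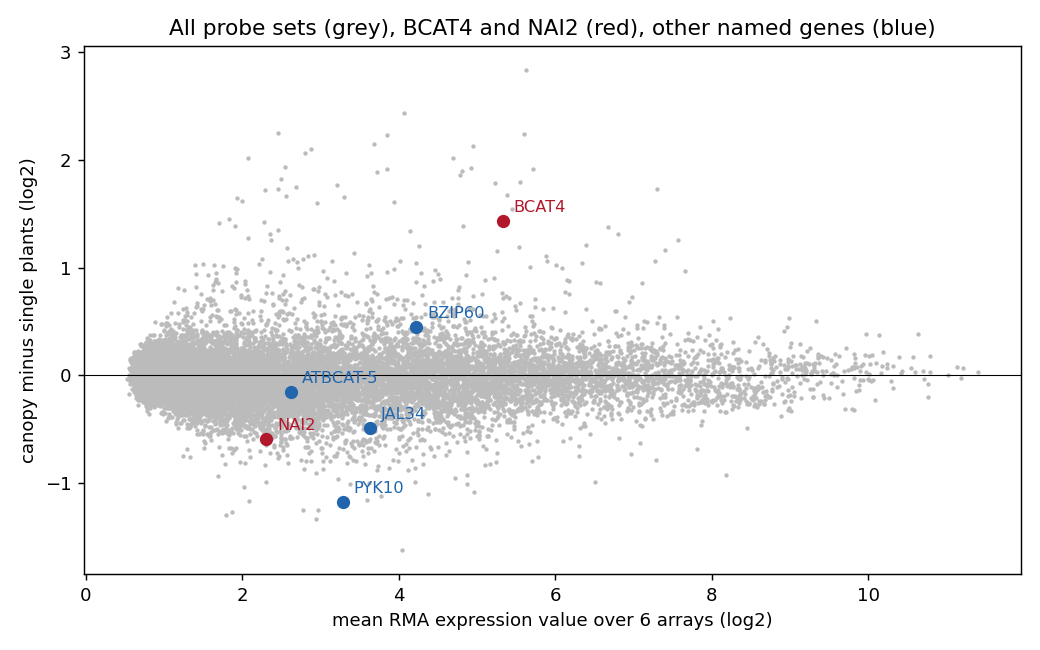
Difference between canopy and single plants against the mean level over 6 arrays (both log2) for all 22746 probe sets in grey, BCAT4 and NAI2 in red and 4 other named genes in blue. BCAT4 lies at 1.44 and NAI2 at -0.59; PYK10 lies below NAI2 at -1.18, and ATBCAT-5 lies within the bulk at -0.15.

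The steps around BCAT4 could be followed only in part. Of the 9 other genes of chain elongation and of transport into plastids, 0 had a probe set listed under their name, and the same holds for the 12 indolic genes and the 15 breakdown genes. Of the 20 genes of the aliphatic core and side chain, 6 were measured and 0 passed the limma test (1 before adjustment, at p under 0.05), with 4 higher and 2 lower and a median difference of 0.10 (log2). Their 95% intervals ran from -0.74 to 0.95, and all 6 had overlapping groups.

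Among these core genes, GSTU20, a glutathione transferase co-expressed with the pathway, stood at 8.42, 8.51 and 8.14 in single plants and at 8.92, 8.51 and 8.31 in the canopy (log2 level). The groups overlapped, and the difference was 0.22 ± 0.16 (log2, SE, n = 3 per group; limma adjusted p = 0.66). It was 0.055 without canopy replicate 1 and 0.055 to 0.36 over the arrays left out in turn. AOP3, a 2-oxoglutarate-dependent dioxygenase that modifies the side chain in some accessions, differed by 0.16 ± 0.11 (limma adjusted p = 0.62) at a low level of 0.91 to 1.21. AT2G31790, entered in the list as UGT74C1 but without a RefSeq symbol here, differed by -0.39 ± 0.15 (limma adjusted p = 0.33). It stood at 5.95 to 6.33 in single plants and 5.52 to 6.04 in the canopy. Without canopy replicate 1 it differed by -0.26. UGT74B1, the glucosyltransferase of the core pathway, is outside the naming rule and was singled out after its values were seen: it differed by 0.03, with a 95% interval from -0.21 to 0.28 (log2).

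Of the 13 regulators and transporters of glucosinolates, 4 were measured and 0 passed the limma test (1 before adjustment, at p under 0.05). GTR1, a glucosinolate importer of the plasma membrane, stood at 4.92, 5.11 and 5.19 in single plants and at 5.03, 4.70 and 4.40 in the canopy (log2 level), with overlapping groups. Its difference was -0.37 ± 0.16 (log2, SE, n = 3 per group; limma adjusted p = 0.39). Its paralogue GTR2 differed by -0.14 ± 0.15 (limma adjusted p = 0.79), and by -0.0093 without canopy replicate 2, -0.023 without single-plant replicate 1 and -0.23 without canopy replicate 1. Without canopy replicate 1 GTR1 differed by -0.52. MYC4 and MYC3, transcription factors that act with the MYB regulators of the pathway, differed by 0.27 ± 0.12 (limma adjusted p = 0.42) and by -0.001 ± 0.094 (limma adjusted p = 1.00). The sign of MYC3 turned after equal scaling of the array medians, at 0.021. The MYB regulators themselves had no named probe set here.

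For NAI2, 9 probe sets of the 20 other ER body genes were measured, and 0 passed the limma test. Of the 9, 8 were lower and 1 was higher in the canopy, 3 had an unadjusted p under 0.05, and 2 had groups that did not overlap. The tally of 8 includes differences close to zero. The 4 probe sets with a mean level above 1.29, the median of all probe sets, were all lower. The other 5 lay at low levels and differed by only -0.101 to 0.009. The median difference was -0.10 (log2), against -0.003 over all probe sets, and is that of NAI1, at a mean level of 0.90.

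PYK10 (BGLU23), the main β-glucosidase of ER bodies, had the largest difference of the 9. It stood at 3.71, 3.59 and 4.32 in single plants and at 2.97, 2.95 and 2.17 in the canopy (log2 level, replicates 1, 2 and 3). The groups did not overlap, single-plant replicate 3 was the highest and canopy replicate 3 the lowest, as for NAI2. The same held for NAI1 and JAL33, which lay at low levels and differed little between the groups. For PYK10 the canopy mean was 2.70 ± 0.45 and the single-plant mean 3.87 ± 0.39 (log2 level, SD, n = 3). The difference of -1.18 ± 0.25 (log2, SE), or 2.26-fold lower, did not pass the limma test (adjusted p = 0.087). Its adjusted p was 0.028 with an intensity trend and robust moderation and 0.028 to 0.21 over all alternatives. Without canopy replicate 1 the difference was -1.31 (limma adjusted p = 0.082).

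Jacalin-related lectins include proteins found in complexes with PYK10, and 4 of the list were measured. JAL34 stood at 3.86, 3.92 and 3.87 in single plants and at 3.64, 3.50 and 3.05 in the canopy (log2 level). Its groups did not overlap, canopy replicate 3 was the lowest, as for NAI2 and PYK10, and single-plant replicate 2 the highest, unlike in those genes. The difference was -0.49 ± 0.15 (log2, SE, n = 3 per group; limma adjusted p = 0.20). JAL22 stood at 1.35, 2.15 and 1.73 in single plants and at 1.02, 1.43 and 1.18 in the canopy, with overlapping groups, the lowest canopy value in replicate 1 and a difference of -0.53 ± 0.19 (limma adjusted p = 0.30). JAL23 differed by -0.25 ± 0.18 (limma adjusted p = 0.65), or -0.13 without canopy replicate 1, and JAL33 by -0.03 ± 0.09 (limma adjusted p = 0.95).

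The other members of the list were at the low end of the scale. NAI1, the transcription factor above NAI2, stood at 0.86, 1.00 and 1.00 in single plants and at 0.96, 0.89 and 0.72 in the canopy (log2 level), with overlapping groups. Its difference was -0.10 ± 0.10 (log2, SE; limma adjusted p = 0.77), with a 95% interval from -0.32 to 0.12. BGLU19, ATA27 (BGLU20) and the probe set shared by BGLU21 and BGLU22 are β-glucosidases, and their means lay within the lowest 25% of probe sets (0.87 or less). With NAI1 and JAL33 they spanned 0.58 to 1.15 on all arrays, with differences from -0.10 to 0.01.

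PYK10 is abundant in roots, so root markers are given beside these values. EXPA7, a root-hair expansin, stood at 1.00 to 1.05 in single plants and at 0.78 to 0.94 in the canopy, and EXPA18, of the same class, at 0.95 to 1.24 and 0.93 to 1.02 (log2 level). Their summed level was 2.00 to 2.28 in single plants and 1.79 to 1.93 in the canopy. The differences were -0.17 ± 0.09 (limma adjusted p = 0.47) and -0.11 ± 0.10 (limma adjusted p = 0.74). Both markers lay near the low end of the scale in both groups, and their part in the ER body values was not tested.

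**Figure D3:**
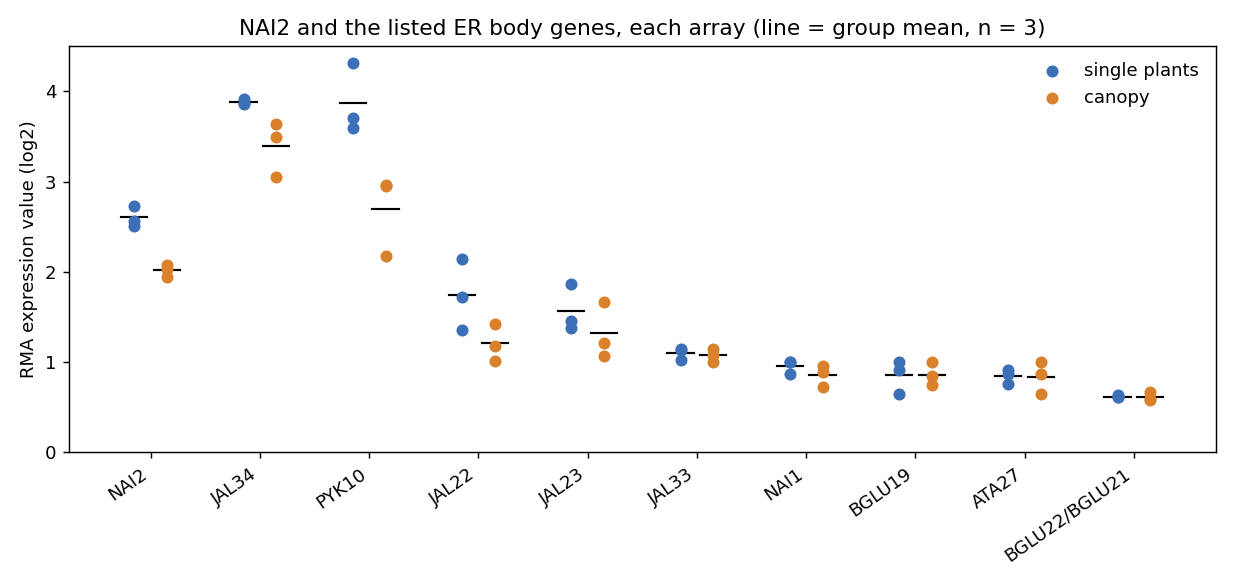
Level on each array (RMA expression value, log2) of NAI2 and of the 9 measured ER body probe sets, ordered after NAI2 by mean level, with single plants in blue, canopy in orange and lines at the group means (n = 3). The groups are apart for NAI2, JAL34 and PYK10, and the 5 probe sets on the right lie between 0.58 and 1.15 with overlapping groups.

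The list of general protein folding in the endoplasmic reticulum did not share one direction. Its measured members include the transcription factors BZIP60, BZIP28 and BZIP17 beside the folding genes themselves. Of 19 listed genes 6 were measured, 0 passed the limma test (2 before adjustment, at p under 0.05), 3 were higher and 3 lower, and the median difference was -0.05 (log2). BZIP60, a transcription factor of the unfolded protein response, stood at 3.99, 3.87 and 4.14 in single plants and at 4.56, 4.30 and 4.49 in the canopy (log2 level). The groups did not overlap, and the difference was 0.45 ± 0.11 (log2, SE, n = 3 per group; limma adjusted p = 0.13). CRT1b, a calreticulin that helps fold glycoproteins, differed by -0.23 ± 0.10 (limma adjusted p = 0.39), and BZIP28, another stress transcription factor of this membrane, by -0.17 ± 0.09 (limma adjusted p = 0.50).

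BCAT4 draws on methionine, and of 34 listed genes of methionine and sulfate metabolism 7 were measured. Of these, 0 passed the limma test (3 before adjustment, at p under 0.05), 4 were higher and 3 lower, and the median difference was 0.03 (log2). APS4, an ATP sulfurylase that activates sulfate, stood at 2.23, 2.66 and 2.84 in single plants and at 2.92, 3.23 and 3.04 in the canopy (log2 level), without overlap. Its difference was 0.48 ± 0.16 (log2, SE, n = 3 per group; limma adjusted p = 0.26). MGL, the methionine γ-lyase that breaks methionine down, stood at 4.98, 4.61 and 4.46 in single plants and at 4.29, 4.28 and 4.25 in the canopy, also without overlap, and differed by -0.41 ± 0.13 (limma adjusted p = 0.24). HMT-1, a homocysteine methyltransferase that forms methionine, differed by -0.49 ± 0.17 (limma adjusted p = 0.28).

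Of 18 listed genes of branched-chain amino acid synthesis and breakdown, the chemistry from which chain elongation of methionine is thought to derive, 8 were measured and 0 passed the limma test (2 before adjustment, at p under 0.05). Of the 8, 5 were higher and 3 lower, 4 had groups that did not overlap, and the median difference was 0.04 (log2). The 3 with the smallest p, AT2G31810, AT3G23940 and AT3G58610, have no RefSeq symbol here. The gene list enters them as VAT1, DHAD and KARI, in that order. AT2G31810 differed by 0.47 ± 0.12 and AT3G23940 by -0.47 ± 0.12 (log2, SE, n = 3 per group; limma adjusted p = 0.14 each). AT3G58610 differed by -0.21 ± 0.09 (limma adjusted p = 0.42).

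**Figure D4:**
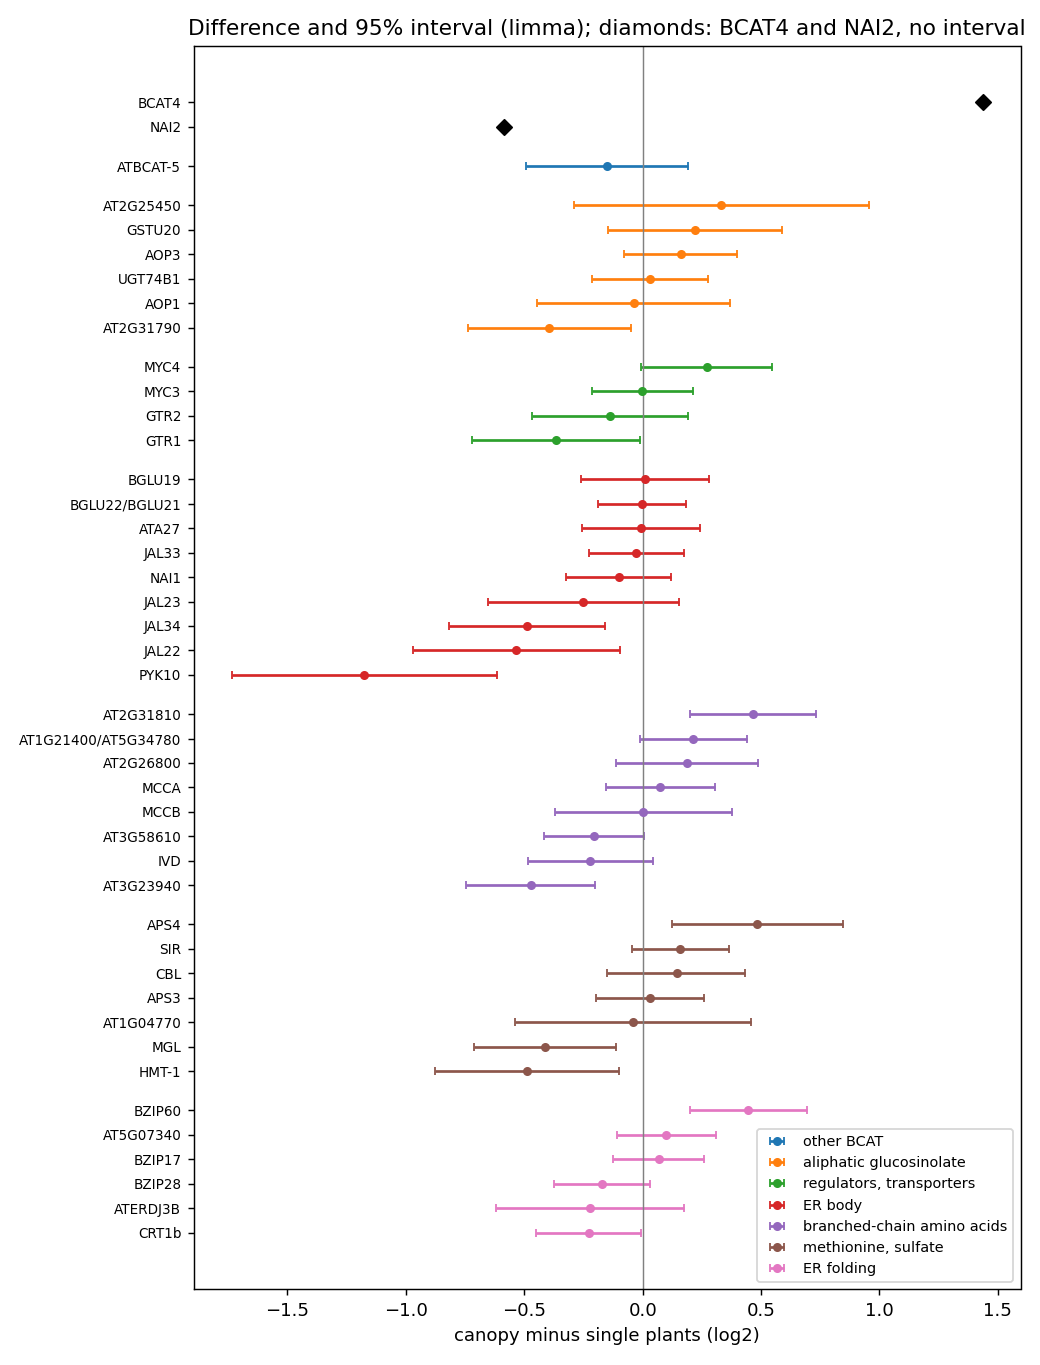
Difference between canopy and single plants (log2, horizontal axis) for BCAT4 and NAI2 as diamonds and for ATBCAT-5 and the 40 measured list probe sets with 95% intervals from limma, coloured by list. BCAT4 lies to the right of every other gene shown, PYK10 to the left of every other, and 0 of the 41 genes with an interval passed the test over all probe sets.

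The genes with the profile most like that of BCAT4 were sought among 6031 other probe sets of 1 gene with a mean level above 1.29, by Pearson correlation over the 6 arrays. With 3 arrays in each of a pair of groups that are far apart, such a correlation is set mostly by the difference between the groups and is given as a description. The 5 highest were LPR2, a multicopper oxidase of the phosphate response of roots (r = 0.989), AT1G61740 (0.987), AT3G03790 (0.986), AT1G34300 (0.986) and AT1G80130 (0.981). LPR2 stood at 4.10, 4.06 and 4.17 in single plants and at 4.80, 4.87 and 4.70 in the canopy (log2 level), a smaller step than that of BCAT4. Ranked by the distance between centred levels, which also counts the size of the step, a different 5 came first, led by AT1G23130, and 0 of the 5 were shared.

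For NAI2 the 5 highest correlations were those of AT1G43995 (r = 0.994), AT5G20060 (0.993), AT3G01790 (0.989), AT1G76550 (0.986) and AT3G02190 (0.985). AT1G76550 was also first by distance between centred levels: it stood at 4.44, 4.35 and 4.56 in single plants and at 3.91, 3.90 and 3.93 in the canopy (log2 level). By that measure 2 of the 5 were shared, AT1G76550 and AT3G01790. None of the 5 genes nearest to either member belongs to the lists used here.

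**Figure D5:**
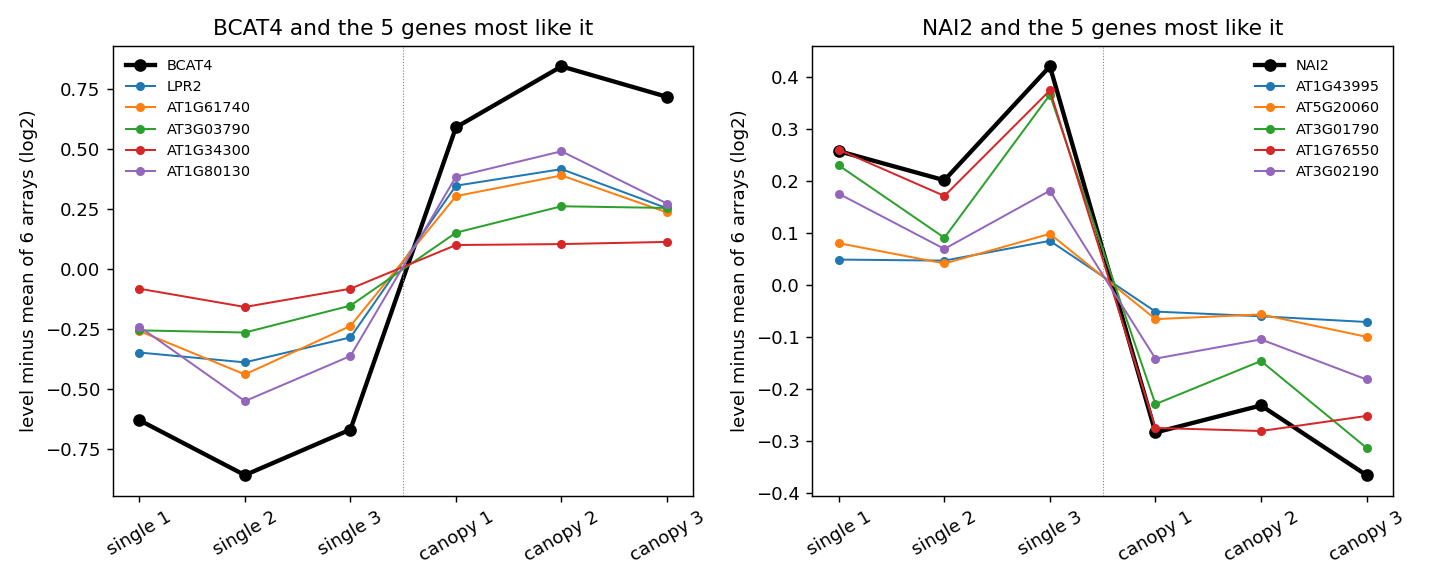
Level minus the mean of the 6 arrays (log2) on each array for BCAT4 (left, black) and NAI2 (right, black) and for the 5 genes with the highest Pearson correlation to each, with thin lines joining the values of 1 gene. BCAT4 moves further between the groups than the genes matched to it, while the step of AT1G76550 is close in size to that of NAI2. Within the canopy their order differs: replicate 3 is the lowest for NAI2 and the highest for AT1G76550.

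The chromosomal neighbours of the members were followed too, by the order of protein-coding genes in the RefSeq table. Beside BCAT4, IKU2, a receptor kinase of seed growth, differed by -0.11 ± 0.11, AT3G19690 by 0.001 ± 0.110 and AT3G19740 by 0.02 ± 0.15 (log2, SE, n = 3 per group; limma adjusted p of 0.77, 1.00 and 0.98). Beside NAI2, AT3G15940 differed by -0.19 ± 0.09, AT3G15930 by 0.15 ± 0.10 and AT3G15970 by -0.01 ± 0.15 (limma adjusted p of 0.43, 0.63 and 0.99). The directions of AT3G19690, AT3G19740 and AT3G15970 turned when single arrays were left out. AT3G15940, directly beside NAI2, stood at 2.13, 2.21 and 2.07 in single plants and at 1.92, 1.93 and 2.01 in the canopy, without overlap between the groups. Of the 8 neighbours, 6 were paired with a probe set and 0 passed the limma test (0 before adjustment, at p under 0.05).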

How the data were processed

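Petiole RNA was measured on Affymetrix 3′ arrays, 6 arrays in groups of 3. The authors deposited RMA expression values, computed with R 2.15.0 (submitters' processing notes) and read here as log2, since the sources used here name no scale. Spiked hybridisation controls gained 1.09 to 1.19 units for each doubling, a rough check of that scale. Array medians lay between 1.28 and 1.32, and no scan batches are given. The number of arrays limits the precision.

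Of 22810 probe sets, 64 controls were left out. Of the other 22746, 13513 were listed with 1 gene (13436 matched RefSeq, TAIR10.1), 503 with several and 8730 with none. All were tested with limma 3.58.1 (R 4.3.3, two-sided, no filter, no block, Benjamini-Hochberg), and the fit was tested on simulated data. Per the labels each replicate is a biological pool. The probe set with the highest mean stood for a gene. One shared by several genes was used where a gene had no other. Members and lists were chosen with earlier results of these data known. Named genes were all measured members of lists with 5 or fewer, otherwise those past the test and the 3 with the smallest p, plus the likeness genes, neighbours and markers. All ER body genes were named after their values were seen. Listed genes without a RefSeq symbol are given by locus tag.

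Alternatives were the replicate block, a filter on low levels, equal medians, an intensity trend with robust moderation, repeated quantile normalization, an adjusted p under 0.1 and leaving out each array. Same-numbered arrays deviated together at r = 0.0024, 0.099 and -0.064, so the numbers were not taken as pairs. Sequences were not used here.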

Additional observations from a re-analysis of the deposited data

How the results depend on the processing

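Over the 9 alternatives run for them, BCAT4 and NAI2 differed by 1.37 to 1.50 and by -0.63 to -0.52 (log2). Most of these could not turn the sign. The replicate block cannot move a difference of means with equal groups. Leaving out 1 array cannot turn the sign where groups do not overlap. Equal medians gave 1.46 and -0.57, and repeated quantile normalization gave 1.43 and -0.54. Neither has a second 1-gene probe set, so averaging probe sets was not run. The counts of 0 held in all lists, with 1 exception: PYK10 was called lower, giving 1 ER body gene, with an intensity trend and robust moderation and also at an adjusted p under 0.1. Over all probe sets, 97 were higher and 57 lower. With the replicate block 39 and 24 were, at an adjusted p under 0.1 188 and 181, and with the intensity trend 151 were higher. Leaving out each array gave 16 to 94 higher and 1 to 65 lower, the lowest counts being without single-plant replicate 2 (16 and 1). With the replicate block BCAT4 stayed at 1.44, NAI2 at -0.59 and PYK10 at -1.18 (limma adjusted p = 0.16), and no list call changed. The numbers were not shown to pair arrays. Ranking likeness by centred distance shared 0 of 5 genes for BCAT4 and 2 of 5 for NAI2; the cause was not tested. Of 424 alternatives for 39 named genes, 393 kept direction and side of the threshold. The other changes were 1 new call and 30 turned signs in 9 genes. None of the 39 had passed the test in the main fit, with or without a turned sign. With equal medians the sign turned for MYC3 (0.021), ATA27 (0.015), BGLU21 and BGLU22 (0.018), RCA (0.0029) and AT3G15970 (0.014). With repeated quantile normalization it turned for MYC3 (0.048), BGLU19 (-0.0033), AT3G19690 (-0.013) and AT3G15970 (0.044). Leaving out each array gave -0.054 to 0.031 for MYC3, -0.065 to 0.0089 for JAL33, -0.094 to 0.086 for BGLU19, -0.089 to 0.089 for ATA27, -0.033 to 0.013 for BGLU21 and BGLU22, -0.056 to 0.0095 for RCA, -0.080 to 0.079 for AT3G19690, -0.15 to 0.15 for AT3G19740 and -0.096 to 0.13 for AT3G15970. All 9 had overlapping groups. Low signal limits what can be said of BGLU19, ATA27, BGLU21 and BGLU22.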
